A study of Mus musculus with 12 samples.

Results

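The angiogenic ligands and receptors comprised 10 genes taken by name, called members here: the ligands Vegfa, Angpt1, Angpt2, Apln and Adm, the secreted proteoglycan Esm1, and the receptors Kdr, Flt1, Tek and Aplnr. Each matched a row of the deposited count table by its symbol, which made 10 of 39756 genes. Counts came from poly(A) RNA of 1 brain hemisphere, the ischemic one where the artery was closed, of 12 male mice labelled C57BL/6J, aged 9 to 10 weeks in the study's methods and all carrying the same batch label. The 4 Sham mice underwent sham surgery. In the 4 Vehicle mice a filament closed the middle cerebral artery, which feeds much of the hemisphere, for 45 min in the methods and was then withdrawn so that blood returned (tMCAO). The 4 LJP mice underwent the same occlusion and received Laminaria japonica polysaccharide, a sulfated carbohydrate from a brown seaweed, by gavage each day for 14 days before surgery and afterwards. Sham and Vehicle mice received saline on that schedule. After a dose-finding experiment the study went on with the middle of its doses, though neither the dose nor the time point is named for the sequenced mice in the sources used here, and 1 hemisphere of each animal was sampled as bulk tissue.

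New vessels sprout from existing ones when endothelial cells, the cells that line vessels, receive the secreted factor VEGF-A, made by the Vegfa gene and known as a response to lack of oxygen. The receptor Kdr carries most of the signal into the cell, while Flt1 binds the ligand tightly and signals weakly. Angiopoietin 1 from mural cells keeps vessels quiet through the receptor Tek, angiopoietin 2 from activated endothelium counteracts it in many settings, and apelin and adrenomedullin are peptides that act on endothelial cells through Aplnr and through the Calcrl receptor with its Ramp partners.

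Total counts per mouse lay between 17960353 and 22216315. The tissue held the markers of brain: 6 neuronal markers summed to between 3487 and 6144 CPM (counts scaled to the TMM-normalized library size) in the 12 mice, and none of them was at 0. The Vehicle mice were unlike each other. The 15 endothelial markers, none at 0 in any mouse, summed to 369 to 393 CPM in Sham mice, to 1206, 2482, 582 and 660 CPM in Vehicle mice 1 to 4, and to 434 to 568 CPM in LJP mice. The 6 fibroblast markers summed to 107 to 115 CPM in Sham mice and reached 1502 CPM in Vehicle mouse 2, against 194 to 311 CPM in the other Vehicle mice. The 8 monocyte, macrophage and neutrophil markers summed to 15.5 to 24.2 CPM in Sham mice, to 327, 376, 80.5 and 129 CPM in Vehicle mice 1 to 4 and to 33.0 to 119 CPM in LJP mice. The 6 choroid plexus markers were at 22.9 and 19.9 CPM in Vehicle mice 1 and 2 and at 530 and 485 CPM in Vehicle mice 3 and 4, and they spanned 31.0 to 906 CPM among Sham mice. Transcripts of 6 lung and airway genes summed to 10.4 to 15.2 CPM in the Sham and Vehicle mice and to 1.04 to 1.56 CPM in the LJP mice, where 3 or 4 of the 6 were at 0. In bulk tissue, fewer or more cells of a type and less or more RNA per cell cannot be told apart. Fits without Vehicle mice 1 and 2, a choice made after the values were seen, are given beside the results of the members and beside the counts of genes called in Vehicle against Sham in the pathway and marker lists.

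In the Sham hemisphere, Vegfa was the most abundant of the 10 genes per kilobase of transcript, at 18.0 ± 0.480 CPM per kilobase (SD, n = 4), followed by Apln at 12.2 ± 0.346 and Flt1 at 6.00 ± 0.387. The receptors Tek (2.73 ± 0.160 CPM per kilobase) and Kdr (2.52 ± 0.287) came next and overlapped with each other. Adm (1.27 ± 0.565 CPM per kilobase) overlapped with Angpt1 (0.641 ± 0.0861), and Angpt2 (0.334 ± 0.0923) with Esm1 (0.211 ± 0.111), while Aplnr was lowest at 0.0656 ± 0.0168. These 3 overlaps were the ones found among the 9 neighbouring pairs of that order. LJP mice showed the same order of means from Vegfa down to Aplnr, with 4 of 9 neighbouring pairs overlapping. The Vehicle means ran differently. Apln led at 27.7 ± 20.5 CPM per kilobase, Angpt2 moved from eighth place to second at 12.8 ± 12.7, and Vegfa followed at 11.2 ± 2.14, but all 9 neighbouring pairs overlapped among the Vehicle mice, so that order was not resolved.

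The first bases upstream are shown for 4 genes of secreted proteins, Adm, Esm1, Apln and Vegfa. Their group means moved in opposite directions after ischemia, and the core of the hypoxia response element is a short fixed motif. Of the 10 genes, 7 were found in the RefSeq promoter table (GRCm38.p6), and for 4 of them a window of 250 bases ended directly before the gene start of the deposited table. Capitals mark ACGTG or GCGTG, the motif searched on both strands, and a match on the minus strand appears here as its reverse complement. Angpt1, Angpt2 and Aplnr had no entry.
Adm, chr7:110627407-110627656, plus strand: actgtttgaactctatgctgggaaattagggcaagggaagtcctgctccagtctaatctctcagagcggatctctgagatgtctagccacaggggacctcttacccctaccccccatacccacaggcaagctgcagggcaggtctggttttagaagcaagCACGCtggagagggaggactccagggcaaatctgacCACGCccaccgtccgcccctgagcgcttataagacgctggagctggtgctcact
Esm1, chr13:113209409-113209658, plus strand: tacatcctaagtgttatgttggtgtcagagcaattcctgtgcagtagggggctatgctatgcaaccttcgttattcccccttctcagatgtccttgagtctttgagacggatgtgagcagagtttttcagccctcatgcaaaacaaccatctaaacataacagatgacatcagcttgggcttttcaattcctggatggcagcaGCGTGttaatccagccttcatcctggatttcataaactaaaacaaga
Apln, chrX:48034854-48035103, minus strand: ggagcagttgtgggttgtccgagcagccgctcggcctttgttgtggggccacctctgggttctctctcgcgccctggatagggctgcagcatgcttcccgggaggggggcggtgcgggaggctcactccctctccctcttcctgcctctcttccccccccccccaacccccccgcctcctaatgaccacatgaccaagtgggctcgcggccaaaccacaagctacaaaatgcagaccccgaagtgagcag
Vegfa, chr17:46032378-46032627, minus strand: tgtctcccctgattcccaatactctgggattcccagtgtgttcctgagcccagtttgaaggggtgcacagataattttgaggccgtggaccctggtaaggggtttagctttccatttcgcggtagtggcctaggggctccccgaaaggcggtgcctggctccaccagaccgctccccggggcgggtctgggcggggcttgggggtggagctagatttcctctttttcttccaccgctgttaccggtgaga
The Adm window held 2 matches, which begin 90 and 54 bases before the start and lie on the minus strand, and the Esm1 window held 1, which begins 47 bases before the start. The Apln and Vegfa windows held none of these letters. Bases farther upstream than 250 and bases within the genes were not searched, so a window without a match does not mean a gene without one. Among all 19827 such windows, 34.9% held at least 1 match and 14.7% held 2 or more, so a match is common. A match is a description of letters and not a site.

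Comparing Vehicle with Sham asks what ischemia and reperfusion did to these genes. By group means and edgeR's call, Angpt2, Adm, Esm1, Tek, Kdr and Apln rose and Vegfa fell. Without Vehicle mice 1 and 2, only Angpt2, Adm, Tek and Vegfa kept the call. The log2 fold changes were then 0.050 for Kdr, -0.072 for Apln and 1.06 for Esm1. The largest change was that of Angpt2, the antagonist-type angiopoietin, which went from 1.19 ± 0.329 CPM (SD, n = 4) in Sham mice to 45.4 ± 45.1 CPM (SD, n = 4) in Vehicle mice. Flt1 and Angpt1 did not pass the test, and Aplnr was too low to be tested in the fit across all genes. In edgeR's quasi-likelihood test with Benjamini-Hochberg adjustment over 17558 genes, 6 of the 9 members tested were higher at an adjusted p below 0.05, beside 22.7% of all genes tested, and 1 was lower, beside 17.3%. Esm1 is among the 6 and passed the filter on low counts only with its Vehicle mice, where it was high, so its place in that count is no support by itself. The median log2 fold change of the 9 members was 1.03, and that of all genes tested was 3.54e-05. The ranges of the Vehicle and Sham mice did not overlap for 3 higher members (Angpt2, Tek and Adm), beside 20.7% of all genes, and for 1 lower member (Vegfa), beside 18.8%.

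**Figure D1:**
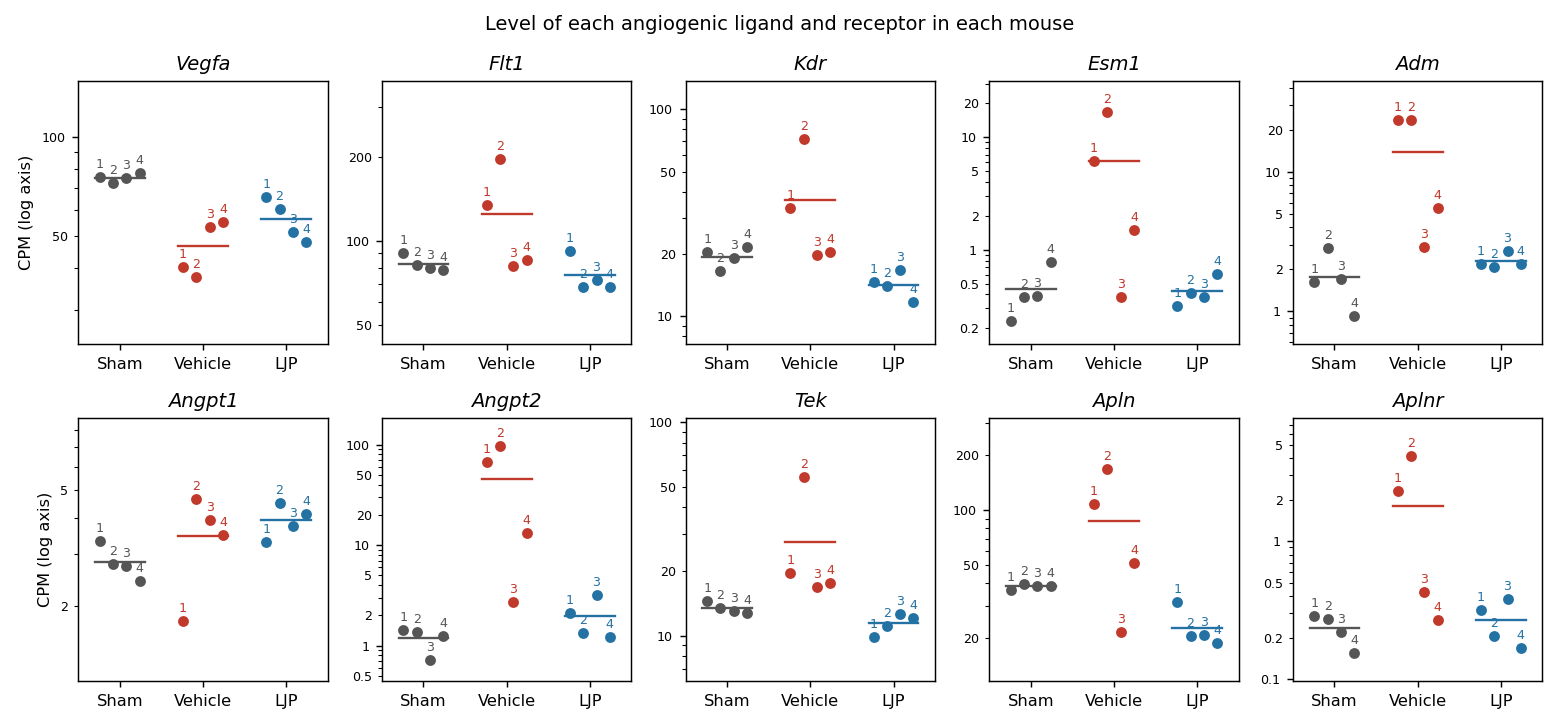
Level of each of the 10 genes in each mouse, as CPM on a log axis, with 1 panel a gene, the 3 groups along the horizontal axis, a numbered point for each mouse and a line at the mean of 4 mice. Vehicle mouse 2 is the highest of the 12 mice in 9 panels, and in the Vegfa panel the 4 Sham mice lie above all others.

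Vegfa (Entrez Gene 22339, chr17:46016993-46032377 of GRCm38, minus strand) encodes the main vascular growth factor. It stood at 75.6, 72.6, 75.1 and 77.4 CPM in Sham mice 1 to 4, at 40.3, 37.8, 53.4 and 55.4 CPM in Vehicle mice 1 to 4, and at 65.9, 60.4, 51.5 and 48.1 CPM in LJP mice 1 to 4. Sham mice were tightly grouped, all Vehicle and LJP mice lay below them, and Vehicle mice 1 and 2 were lowest. Its log2 fold change in Vehicle against Sham was -0.69 (standard error, SE, 0.13, adjusted p = 0.00211 by edgeR), so the Vehicle mean was 62.2% of the Sham mean. The call held in all 12 fits that each left out 1 mouse, and without Vehicle mice 1 and 2 the value was -0.47 (adjusted p = 0.00233 by edgeR). Its 2 lowest Vehicle mice were those with the most endothelial and myeloid markers. The neuronal marker sum was 5285 to 5949 CPM in Sham mice and 3487 to 5317 CPM in Vehicle mice, and the part of these markers in the result was not tested.

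Angpt2 (Entrez Gene 11601, chr8:18690263-18741562, minus strand) was at 1.44, 1.36, 0.712 and 1.24 CPM in Sham mice 1 to 4, at 68.0, 97.7, 2.75 and 13.3 CPM in Vehicle mice, and at 2.09, 1.33, 3.21 and 1.23 CPM in LJP mice. All 4 Vehicle mice were above all Sham mice, yet they differed among themselves by 35.6-fold, and Vehicle mouse 3 was below LJP mouse 3. Vehicle against Sham gave a log2 fold change of 5.25 (SE 0.91, adjusted p = 0.00127 by edgeR). Without Vehicle mice 1 and 2 it was 2.74 (adjusted p = 0.000738 by edgeR), so the rise remained called at a smaller size. The gene Mcph1 lies across Angpt2 on the opposite strand, and its counts stayed between 207 and 289 in the 12 mice. Whether counting used strand was not given in the sources used here.

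Angpt1 (Entrez Gene 11600, chr15:42424667-42676977, minus strand), the partner that steadies vessels, was measured at 3.34, 2.78, 2.74 and 2.44 CPM in Sham mice 1 to 4, at 1.77, 4.64, 3.93 and 3.50 CPM in Vehicle mice, and at 3.32, 4.50, 3.75 and 4.12 CPM in LJP mice. Vehicle mouse 1 was the lowest of the 12 and Vehicle mouse 2 the highest. The log2 fold change of 0.29 in Vehicle against Sham had a 95% confidence interval from -0.26 to 0.85 (adjusted p = 0.382 by edgeR), and without Vehicle mouse 1 it was 0.51 (adjusted p = 0.0489 by edgeR, the lowest of its 19 alternatives, which reached 0.779). The ratio of Angpt2 to Angpt1, each per kilobase, was 0.322 to 0.632 in Sham mice. It was 47.5, 26.1, 0.864 and 4.70 in Vehicle mice 1 to 4 and 0.366 to 1.06 in LJP mice. Angpt1 was thus the more abundant ligand in every Sham mouse, in Vehicle mouse 3 and in 3 of 4 LJP mice.

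Adm (Entrez Gene 11535, chr7:110627657-110629820, plus strand), which encodes the vessel-dilating peptide adrenomedullin, was found at 1.61, 2.83, 1.70 and 0.933 CPM in Sham mice 1 to 4, at 23.4, 23.5, 2.91 and 5.50 CPM in Vehicle mice, and at 2.18, 2.10, 2.72 and 2.17 CPM in LJP mice. Vehicle mice 1 and 2 were nearly equal, and Vehicle mouse 3 lay just above the highest Sham mouse. Its log2 fold change in Vehicle against Sham was 2.97 (SE 0.59, adjusted p = 0.00262 by edgeR), and 1.24 without Vehicle mice 1 and 2 (adjusted p = 0.0128 by edgeR). Gm28863 overlaps Adm on the opposite strand and had 37, 33, 4 and 12 counts in Vehicle mice 1 to 4 against 5 to 10 in the other mice, beside at least 18 counts of Adm in each mouse. Reads of the 2 genes cannot be told apart without strand.

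Esm1 (Entrez Gene 71690, chr13:113209659-113218104, plus strand) encodes endocan, a proteoglycan secreted by activated endothelium and known as a marker of the leading cells of a sprout. It was near the limit of detection outside the Vehicle group, at 0.231, 0.381, 0.384 and 0.777 CPM in Sham mice 1 to 4 and at 0.318, 0.409, 0.381 and 0.613 CPM in LJP mice. Vehicle mice 1 to 4 were at 6.17, 16.7, 0.377 and 1.51 CPM, so that Vehicle mouse 3 fell among the Sham mice. Gm41069 lies across Esm1 on the opposite strand and had 21 to 33 counts in Sham mice, more than the 4 to 15 counts of Esm1 there, 5 to 9 in Vehicle mice and 14 to 22 in LJP mice. Reads of this pair cannot be told apart without strand either. Esm1 reached the filter on low counts in 3 Vehicle mice, 1 Sham mouse and 1 LJP mouse, where 4 mice were needed, so it entered the test only with the group where it was high. The fitted log2 fold change of Vehicle against Sham was 3.78 (SE 0.90, adjusted p = 0.00625 by edgeR). With no filter on low counts, where its entry did not depend on the Vehicle mice, it was 3.78 (adjusted p = 0.00302 by edgeR), while the groups overlapped and the exact two-sided permutation test of log2(CPM + 0.5) gave p = 0.114. Without Vehicle mice 1 and 2 it was 1.06 and no longer called (adjusted p = 0.179 by edgeR).

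Apln (Entrez Gene 30878, chrX:48025146-48034853, minus strand), the apelin gene, was almost constant in Sham mice at 36.9, 39.5, 38.7 and 38.5 CPM. In Vehicle mice 1 to 4 it was at 108, 168, 21.8 and 51.5 CPM, and in LJP mice at 31.5, 20.6, 20.9 and 18.8 CPM. Vehicle mouse 3 was below every Sham mouse and the other Vehicle mice were above, so the group pointed both ways. The log2 fold change of Vehicle against Sham was 1.19 (SE 0.44, adjusted p = 0.0477 by edgeR), while the adjusted p by DESeq2 was 0.0510, within a range of 0.00179 to 0.868 over the 19 alternatives of that result. Leaving out 1 mouse ended the call in 10 of 12 fits, all but those without Vehicle mouse 3 or Vehicle mouse 4. Without Vehicle mouse 2 the value was 0.65, and without Vehicle mice 1 and 2 it was -0.072.

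Kdr (Entrez Gene 16542, chr5:75932827-75979072, minus strand), the main signalling receptor of VEGF-A, was at 20.5, 16.5, 19.1 and 21.6 CPM in Sham mice 1 to 4, at 33.3, 72.2, 19.8 and 20.5 CPM in Vehicle mice, and at 14.6, 13.96, 16.6 and 11.7 CPM in LJP mice. Vehicle mice 3 and 4 lay within the Sham range, and the difference rested on Vehicle mice 1 and 2. The log2 fold change of Vehicle against Sham was 0.91 (SE 0.34, adjusted p = 0.0465 by edgeR), with the call lost in 10 of the 12 fits that left out 1 mouse, again all but those without Vehicle mouse 3 or 4. Its value was 0.33 without Vehicle mouse 2 and 0.050 without Vehicle mice 1 and 2.

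Flt1 (Entrez Gene 14254, chr5:147561604-147726438, minus strand), the tightly binding receptor, was recorded at 90.3, 81.7, 80.0 and 78.3 CPM in Sham mice 1 to 4, at 134, 196, 81.3 and 84.9 CPM in Vehicle mice, and at 91.6, 68.0, 72.2 and 68.2 CPM in LJP mice. As for Kdr, Vehicle mice 3 and 4 were within the Sham range. The log2 fold change of Vehicle against Sham was 0.59 with a 95% confidence interval from 0.09 to 1.09 (adjusted p = 0.0581 by edgeR, range over its 19 alternatives 0.0127 to 0.981), and without Vehicle mice 1 and 2 it was 0.0047.

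Tek (Entrez Gene 21687, chr4:94739086-94874976, plus strand), the angiopoietin receptor, was at 14.5, 13.4, 13.1 and 12.7 CPM in Sham mice 1 to 4, at 19.7, 55.3, 16.8 and 17.7 CPM in Vehicle mice, and at 9.81, 11.0, 12.7 and 12.1 CPM in LJP mice. Every Vehicle mouse was above every Sham mouse, Vehicle mouse 2 by far the most. For Vehicle against Sham the log2 fold change was 1.03 (SE 0.32, adjusted p = 0.0231 by edgeR). Without Vehicle mouse 2 it was 0.42 (adjusted p = 0.0105 by edgeR), and without Vehicle mice 1 and 2 it was 0.36 (adjusted p = 0.0335 by edgeR). Leaving out Sham mouse 2, 3 or 4 ended the call, with adjusted p-values of 0.0526, 0.0537 and 0.0556 in edgeR.

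Aplnr (Entrez Gene 23796, chr2:85136360-85139923, plus strand), the apelin receptor, gave 5, 5, 4 and 3 counts in Sham mice 1 to 4, 51, 96, 8 and 5 counts in Vehicle mice, and 7, 4, 7 and 3 counts in LJP mice. In CPM these were 0.155 to 0.288 in Sham mice, 0.269 to 4.12 in Vehicle mice and 0.167 to 0.381 in LJP mice, with a floor of 3 counts at 0.129 to 0.173 CPM. Vehicle mice 1 and 2 stood above all others, while Vehicle mouse 4 was among the Sham mice. An exact two-sided permutation test of log2(CPM + 0.5) gave p = 0.0857 for Vehicle against Sham, where 0.0286 is the smallest p that 4 against 4 mice allow. With no filter on low counts the log2 fold change was 2.93 (adjusted p = 0.00680 by edgeR), and DESeq2 gave 2.94 (adjusted p = 0.000923). Without Vehicle mice 1 and 2, and again with no filter, the value was 0.56 and not called (adjusted p = 0.701 by edgeR). Those 3 were the alternatives run for Aplnr, which rests on few counts.

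The spread between Vehicle mice followed a common order. Vehicle mouse 2 was the highest of the 12 mice for 9 of the 10 genes, with Vegfa as the exception, and Vehicle mice 2 and 1 were the highest pair for 8. Vehicle mouse 3 was the lowest Vehicle mouse for 7. The coefficient of variation among Vehicle mice ran from 19.2% for Vegfa to 120% for Esm1, against 2.66% for Vegfa, 2.84% for Apln and 52.8% for Esm1 among Sham mice. The sums of endothelial, fibroblast and myeloid markers were likewise highest in Vehicle mouse 2. The 5 microglia markers ran otherwise, at 253, 416, 449 and 472 CPM in Vehicle mice 1 to 4 against 182 to 187 CPM in Sham mice. The part of these markers in the members' levels was not tested. Of the 15 endothelial markers 13 rose in Vehicle against Sham in edgeR and none fell, beside 22.7% of all genes higher, with a median log2 fold change of 1.88. All 6 fibroblast markers rose (median 2.93), as did all 5 of the 8 myeloid markers that could be tested (median 3.55), while 4 of 5 microglia markers (median 1.01) and 3 of 8 pericyte and smooth muscle markers (median 0.33) rose. The myeloid marker Ccr2 passed the filter on low counts only with its Vehicle mice, where it was high, so its call is no support. The myeloid median is its own value, also in the fit given next, and the other myeloid markers tested lay between 2.24 and 3.99. Without Vehicle mice 1 and 2, edgeR called 12 of 15 endothelial markers (median 0.74), 6 of 6 fibroblast markers (1.596), 4 of 5 myeloid markers (2.45), 4 of 5 microglia markers (1.33) and 3 of 8 pericyte and smooth muscle markers (0.16), beside 15.7% of all genes higher in that fit.

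**Figure D2:**
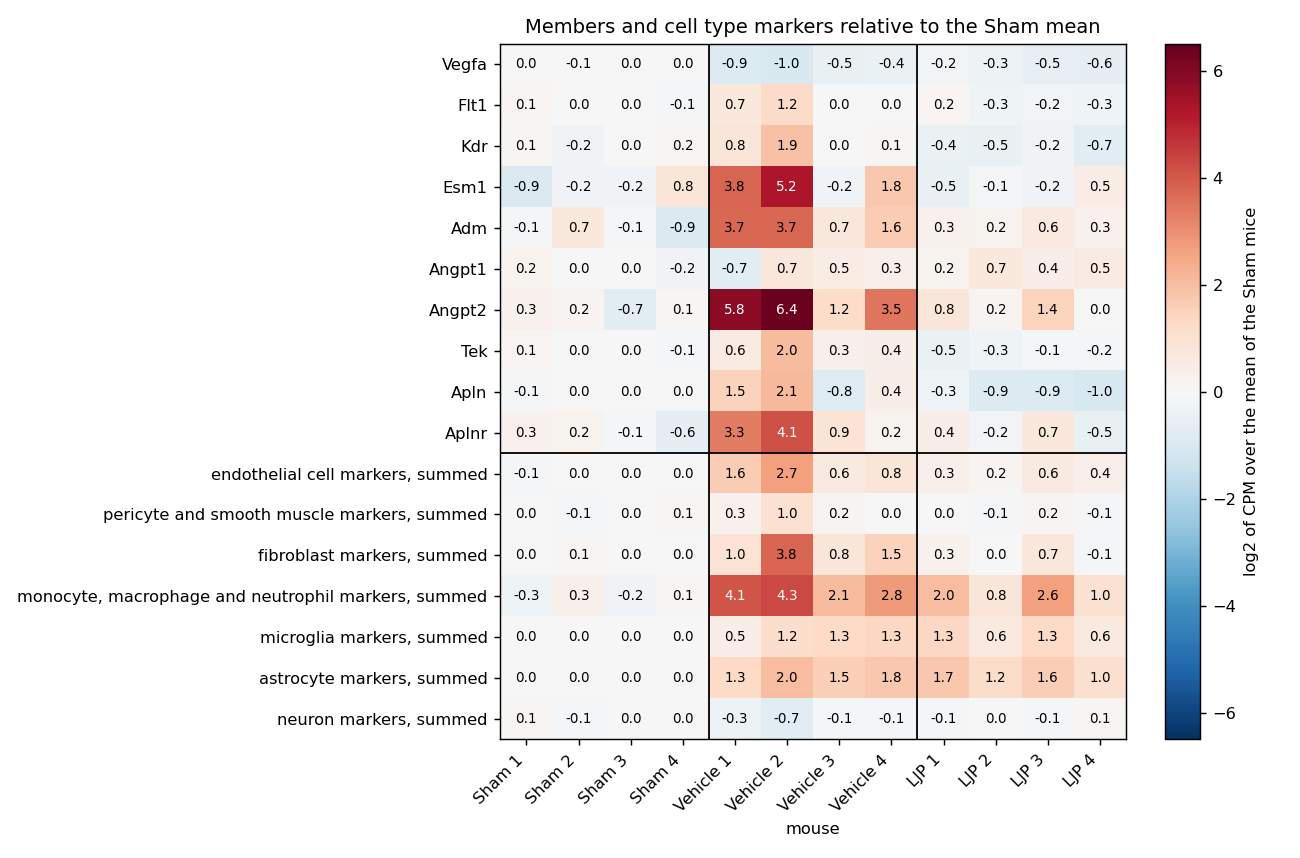
Heat map of the log2 ratio of CPM to the Sham mean for the 10 genes (upper rows) and for 7 summed lists of cell type markers (lower rows), with a column for each mouse and a colour scale from blue (lower) to red (higher). The columns of Vehicle mice 1 and 2 are the reddest for Angpt2, Esm1, Adm and Aplnr and for the endothelial and myeloid lists, and the Vegfa row is blue in all Vehicle and LJP columns.

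Set against the endothelial marker sum of the same mouse, the members showed another picture, given here as a description with no test. With the Sham mean at 1, Kdr per endothelial marker was 0.547 to 0.674 in Vehicle mice and 0.472 to 0.637 in LJP mice, while Sham mice spanned 0.841 to 1.10. Tek was 0.468 to 0.828 in Vehicle mice and 0.573 to 0.728 in LJP mice, against 0.926 to 1.13 in Sham mice. Flt1 was 0.368 to 0.650 in Vehicle mice and 0.593 to 0.870 in LJP mice, against 0.928 to 1.14 in Sham mice. For these 3 receptors all 8 mice with ischemia thus lay below every Sham mouse. The glucose transporter Slc2a1 made up 29.8% to 34.9% of the sum in Sham mice, 16.4% to 32.7% in Vehicle mice and 36.0% to 41.2% in LJP mice. With it left out of the sum, a choice made after the values were seen, Kdr and Tek of all 8 mice still lay below every Sham mouse, while Flt1 reached 0.994 in LJP mice and overlapped with the Sham range of 0.932 to 1.09, so the Flt1 separation in LJP mice rested on that gene. The fourth receptor, Aplnr, did not follow them, at 0.669 to 3.15 in Vehicle mice and 0.558 to 1.10 in LJP mice, against 0.649 to 1.28 in Sham mice, on few counts. The ratio was below every Sham mouse for the ligands Apln and Vegfa too. Apln was 0.375 to 0.899 in Vehicle mice and 0.370 to 0.644 in LJP mice, against 0.982 to 1.02 in Sham mice. Vegfa was 0.0780 to 0.469 in Vehicle mice and 0.464 to 0.712 in LJP mice, against 0.957 to 1.05 in Sham mice. Angpt2 lay on the other side: its ratio was 1.52 to 18.2 in Vehicle mice, against 0.588 to 1.26 in Sham mice and 0.805 to 1.82 in LJP mice. Adm was likewise 1.08 to 4.22 in Vehicle mice, overlapping the Sham range of 0.517 to 1.59, and 0.962 to 1.05 in LJP mice. Esm1 overlapped with Sham in both groups, at 0.566 to 5.88 in Vehicle mice and 0.568 to 1.09 in LJP mice against 0.547 to 1.73. So did Angpt1, at 0.199 to 0.916 in Vehicle mice and 0.898 to 1.41 in LJP mice against 0.843 to 1.23. The list holds genes that ischemia itself changed, so the ratio compares changes and does not count cells.

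**Figure D3:**
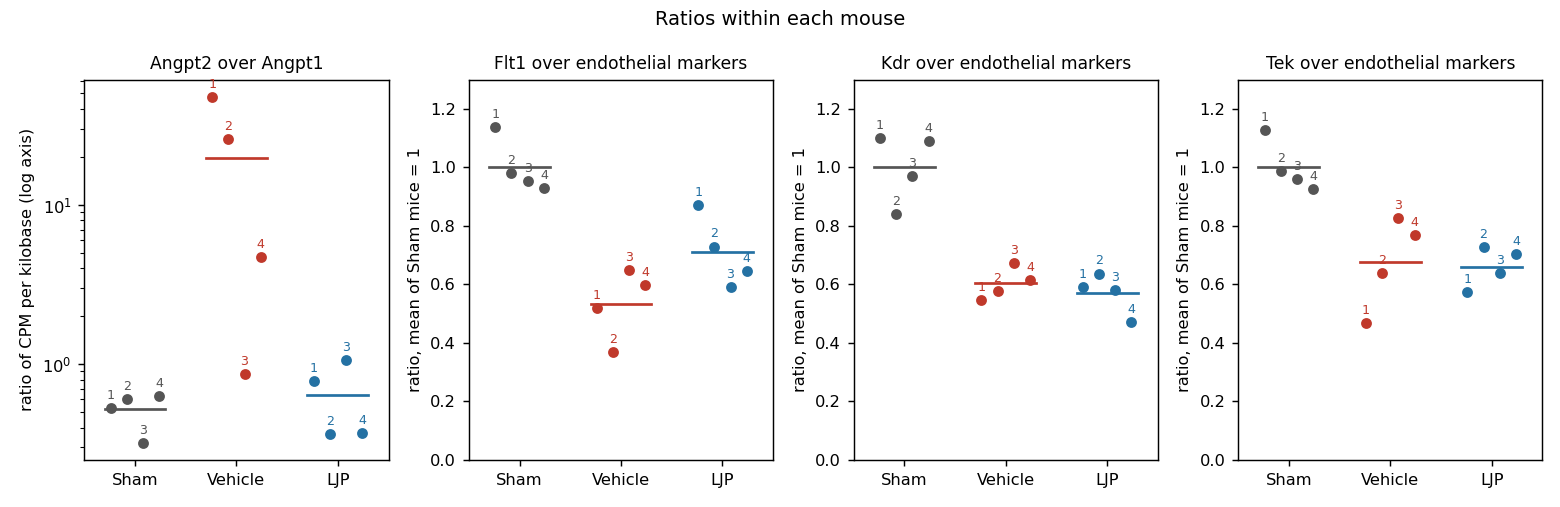
Ratio of Angpt2 to Angpt1 (CPM per kilobase, log axis) and ratios of Flt1, Kdr and Tek to the summed endothelial markers (linear axes, Sham mean at 1), with a numbered point for each mouse and a line at the mean of the 4 mice of each group. The Angpt2 to Angpt1 ratio reaches 47.5 in Vehicle mouse 1, and in the other panels all Vehicle and LJP mice lie below all Sham mice.

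Comparing LJP with Vehicle sets mice given the polysaccharide against mice given saline, after the same occlusion. The study reported smaller infarcts than with vehicle at its middle and high doses, and the part of infarct size in these values was not tested. Angpt2, Esm1, Adm, Apln, Kdr, Tek and Flt1 were lower in the LJP group, but none of the 9 members tested passed edgeR's adjusted p below 0.05, beside 0.0228% of all genes tested (4 genes). The mean of Angpt2 in LJP mice was 1.96 ± 0.915 CPM (SD, n = 4), which is 4.32% of the Vehicle mean, with a log2 fold change of -4.53 (SE 0.86, adjusted p = 0.0678 by edgeR). Both this comparison and the previous one use the same Vehicle mice, so their values for a gene are not independent. Esm1, again in the fit through its Vehicle mice, is one of the 7 lower members. These 7 had an unadjusted p below 0.05 in edgeR, as did 29.7% of all genes, and their edgeR adjusted p-values lay between 0.0678 and 0.0798. DESeq2 called 8 members lower, these 7 and Aplnr, beside 9.48% of all genes it tested. The thresholds named in the study's methods (a log2 fold change beyond 0.58 in either direction with an unadjusted p under 0.01), applied to the edgeR values, took 7 members, all lower, beside 5.89% of all genes. The LJP and Vehicle ranges did not overlap for 3 members, all lower (Kdr, Tek and Adm), beside 5.91% of all genes. The median log2 fold change of the 9 members was -1.36, and that of all genes tested was -0.0017.

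Among the secreted proteins, Esm1 had a log2 fold change of -3.85 in LJP against Vehicle (SE 0.90), Adm of -2.60 (SE 0.58) and Apln of -1.93 (SE 0.45), all at an adjusted p of 0.0678 in edgeR. Adm was at 2.10 to 2.72 CPM in the LJP mice, below the lowest Vehicle mouse at 2.91 CPM. For Esm1, LJP mice 2 to 4 were above Vehicle mouse 3, and for Apln LJP mouse 1 was above it. Vegfa differed in direction, with a log2 fold change of 0.27 and a 95% confidence interval from -0.01 to 0.56 (adjusted p = 0.180 by edgeR), since LJP mice 1 and 2 were above all Vehicle mice and LJP mice 3 and 4 were not. Angpt1 had a log2 fold change of 0.18 with an interval from -0.37 to 0.73 (adjusted p = 0.647 by edgeR).

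Among the receptors, Kdr had a log2 fold change of -1.36 (SE 0.34) and Tek of -1.27 (SE 0.32) in LJP against Vehicle, all at an adjusted p of 0.0678 in edgeR. All 4 LJP mice were below all 4 Vehicle mice for both genes. Flt1 had a log2 fold change of -0.73 (SE 0.23, adjusted p = 0.0798 by edgeR), with LJP mouse 1 above Vehicle mice 3 and 4. For Aplnr the exact permutation p was 0.114, and DESeq2 gave a log2 fold change of -2.74 (adjusted p = 0.00890), whereas edgeR with no filter on low counts gave -2.71 (adjusted p = 0.0522) and, without Vehicle mice 1 and 2, -0.37 (adjusted p = 0.904).

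The calls turned on which Vehicle mice were included. Without Vehicle mouse 3, or without Vehicle mouse 4, edgeR called 7 members lower in LJP against Vehicle. The count over all genes, in either direction, went from 4 of 17558 to 3857 or 2095 genes, so the added calls were not particular to the members. Without Vehicle mice 1 and 2, no member was called, and the log2 fold changes were -2.03 for Angpt2, -1.14 for Esm1, -0.88 for Adm, -0.67 for Apln, -0.60 for Tek, -0.50 for Kdr and -0.15 for Flt1, with edgeR adjusted p-values from 0.112 to 0.553. Each of the 7 kept a negative value there. The endothelial marker sum was lower in LJP than in Vehicle mice without overlap, with 14 of the 15 markers at a negative log2 fold change, although edgeR called none of the 15. The fibroblast marker sum was 107 to 184 CPM in LJP mice, below the 194 to 1502 CPM of Vehicle mice, with all 6 markers at a negative value (median log2 fold change -2.50). All 5 myeloid markers tested were negative too (median -1.66) and all 6 neuronal markers positive (median 0.30), with overlapping sums, and edgeR called none of these, though without Vehicle mice 1 and 2 it called 2 fibroblast markers lower. Ccr2, again in the fit through its Vehicle mice, is among these 5 myeloid markers, and the median is its own value. The lung and airway transcripts also separated the LJP mice from the Vehicle mice, with 3 of the 5 tested called lower in edgeR. The part of these markers in the members' values was not tested.

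**Figure D4:**
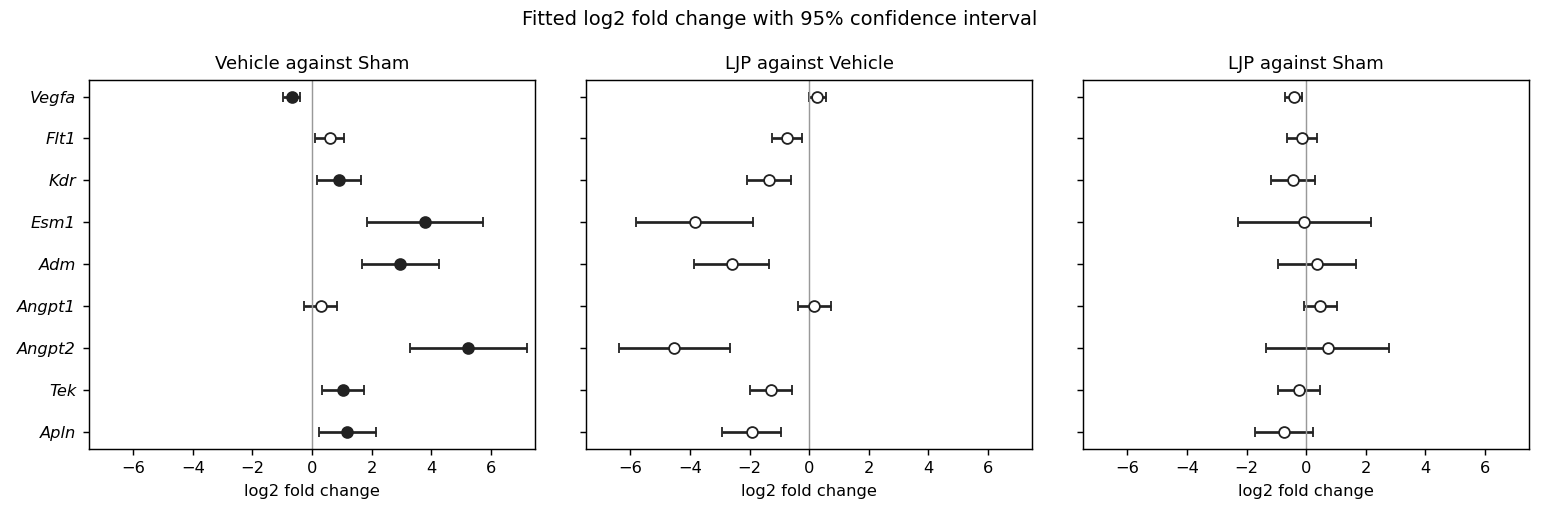
Fitted log2 fold change (horizontal axis) of the 9 members tested in Vehicle against Sham, LJP against Vehicle and LJP against Sham, with bars for the 95% confidence interval and filled points for an edgeR adjusted p below 0.05. The 7 filled points are in the first panel, with Vegfa alone to the left of 0, and in the second panel 7 intervals lie to the left of 0 with open points.

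Comparing LJP with Sham shows what difference remained in treated mice. No member passed edgeR's adjusted p below 0.05, beside 4.75% of all genes tested, and DESeq2 called none either, beside 7.65% of the genes it tested. At an unadjusted p below 0.05 edgeR had 1 member, beside 18.8% of all genes. That member was Vegfa, at 75.1% of the Sham mean, with a log2 fold change of -0.41 (SE 0.13, adjusted p = 0.0999 by edgeR). All 4 LJP mice were below all 4 Sham mice for Vegfa, Tek and Apln, 3 members beside 12% of all genes. The Apln mean was 22.9 ± 5.77 CPM in LJP mice against 38.4 ± 1.09 CPM in Sham mice (SD, n = 4 each), a log2 fold change of -0.74 with a 95% confidence interval from -1.71 to 0.22. Tek was at 11.4 ± 1.26 CPM in LJP mice against 13.4 ± 0.788 CPM (log2 fold change -0.24, interval from -0.94 to 0.47). Kdr had a log2 fold change of -0.45 with an interval from -1.19 to 0.29.

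The 3 groups share an estimate of the spread in the fit, so the Vehicle mice also enter the error of this comparison. When only the LJP and Sham mice were fitted, edgeR called 3 members, all lower in LJP mice: Apln (log2 fold change -0.74, adjusted p = 0.000994), Vegfa (-0.42, adjusted p = 0.00277) and Kdr (-0.45, adjusted p = 0.0131). The ranges of these adjusted p-values over 19 alternatives were 0.000994 to 0.616 for Apln, 0.00153 to 0.281 for Vegfa and 0.00856 to 0.689 for Kdr. The count over all genes, in either direction, went from 834 (4.75%) to 4043 in that fit, so the added calls were not particular to the members. The fit without Vehicle mice 1 and 2 also called these 3 members, beside 24.3% of all genes, and Vegfa alone was called without Vehicle mouse 2 (adjusted p = 0.0243 by edgeR). For the genes with the greatest rise in Vehicle mice, LJP mice did not separate from Sham mice: the log2 fold change was 0.72 for Angpt2 with an interval from -1.35 to 2.79, 0.37 for Adm with an interval from -0.94 to 1.69 and -0.067 for Esm1 with an interval from -2.30 to 2.16. The fit of only LJP and Sham mice gave 0.72 for Angpt2 (adjusted p = 0.152 by edgeR) and 0.37 for Adm (adjusted p = 0.402 by edgeR), and Esm1 was too low to be tested there.

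Other genes of the same pathways came from 6 lists written from general knowledge, with Angptl4 in 2 of them and Flt4, Tie1 and Slc2a1 also among the endothelial markers. Of 57 such genes 54 could be tested, and in Vehicle against Sham edgeR called 29 higher, beside 22.7% of all genes, and 6 lower, beside 17.3%, with a median log2 fold change of 0.57. Without Vehicle mice 1 and 2 it called 21 of 55 higher, beside 15.7% of all genes in that fit, and 4 lower, beside 14%, with a median of 0.28. The gene added in that fit is among the 21 and passed the filter only with its Vehicle mice, where it was high. The pathway genes named next remained called there except Ackr3, at smaller sizes. In LJP against Vehicle edgeR called none of the 54, of which 43 had a negative value, and in LJP against Sham it called 1 higher and 1 lower, beside 4.75% of all genes. These became 10 and 6 of 55 without Vehicle mice 1 and 2, beside 24.3% of all genes, so both shares lie near those of all genes. Of the VEGF partners, 4 of 7 rose in Vehicle against Sham, and 4 of 7 without Vehicle mice 1 and 2. Pgf, a ligand of Flt1, went from 1.45 ± 0.664 to 13.9 ± 12.5 CPM (SD, n = 4 each; log2 fold change 3.26, adjusted p = 0.00279 by edgeR, and 1.41 without Vehicle mice 1 and 2), and Flt4, a receptor for the lymphatic VEGF ligands, from 5.54 ± 0.772 to 31.6 ± 26.3 CPM (log2 fold change 2.52, adjusted p = 0.00264 by edgeR). Vegfd, which encodes such a ligand, went from 1.09 ± 0.182 to 3.53 ± 1.66 CPM (log2 fold change 1.69, adjusted p = 0.00247 by edgeR).

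Of the 6 angiopoietin and Tie partners tested, 4 rose, beside 22.7% of all genes, and none fell in Vehicle against Sham. Without Vehicle mice 1 and 2 it was 4 of 7, beside 15.7% of all genes. The gene added to that fit passed the filter on low counts only with Vehicle mice 3 and 4, where it was high. Its call is therefore no support, and a gene called with all mice was no longer called. Tie1, the orphan receptor that pairs with Tek, had a log2 fold change of 2.01 (adjusted p = 0.00508 by edgeR), Ptprb, the phosphatase that restrains Tek, of 0.77 (adjusted p = 0.0236 by edgeR), and Angptl4, an inhibitor of lipoprotein lipase, of 3.81 (adjusted p = 0.00104 by edgeR). Among the apelin partners, Mme, neprilysin, a peptidase that cuts apelin, went from 19.1 ± 2.28 to 5.15 ± 2.10 CPM (log2 fold change -1.90, adjusted p = 0.000335 by edgeR). Of the 8 adrenomedullin partners tested, 3 rose, beside 22.7% of all genes, and 1 fell, with a median log2 fold change of 0.51. Leaving out Vehicle mice 1 and 2, 1 rose and 1 fell, with a median of 0.19, near the 15.7% and 14% of all genes in that fit. Ramp2, the receptor partner, was at 12.4, 46.4, 12.5 and 13.96 CPM in Vehicle mice 1 to 4, so that mouse 2 stood far above the rest. Its log2 fold change was 1.20 (adjusted p = 0.0252 by edgeR), and 0.50 without Vehicle mice 1 and 2 (adjusted p = 0.0383 by edgeR). Ackr3, a scavenger receptor, was at 26.8, 37.9, 8.13 and 12.6 CPM in Vehicle mice, with mouse 3 inside the Sham range. It had a log2 fold change of 1.39 (adjusted p = 0.0117 by edgeR), and without Vehicle mice 1 and 2 it was 0.33 and no longer called (adjusted p = 0.237 by edgeR). Pam, the enzyme that amidates the peptide, fell with a log2 fold change of -0.27 (adjusted p = 0.0157 by edgeR).

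Of 13 tip cell and Notch genes, 11 rose, beside 22.7% of all genes, and 1 fell, beside 17.3%, in Vehicle against Sham, with a median log2 fold change of 1.38. In the fit without Vehicle mice 1 and 2, 9 rose, beside 15.7% of all genes, and none fell, with a median of 0.66. Pdgfb, which recruits pericytes, went from 46.9 ± 2.86 to 71.8 ± 8.51 CPM (SD, n = 4 each; log2 fold change 0.61, adjusted p = 0.000442 by edgeR), and Cxcr4, a chemokine receptor that myeloid cells carry too, had a log2 fold change of 3.21 (adjusted p = 0.00135 by edgeR). Of the 18 hypoxia-inducible factors and targets, 7 were higher, beside 22.7% of all genes, and 3 lower, with a median of 0.20. The share called lower is near the 17.3% of all genes. Without Vehicle mice 1 and 2 these counts were 3 and 2, with a median of 0.097. Both shares then lie near the 15.7% higher and 14% lower of all genes in that fit. Hmox1, heme oxygenase, had a log2 fold change of 5.46 (adjusted p = 0.000376 by edgeR) and Slc2a1, the glucose transporter of brain endothelium, of 1.04 (adjusted p = 0.00288 by edgeR), whereas Ankrd37, a target of the hypoxia factor, had one of -0.92 (adjusted p = 0.00503 by edgeR).

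Profiles across the 12 mice were compared by the root mean square difference of log2 CPM, each gene centred on its Sham mean. Vegfa was nearest to Rgs20 (0.0897) and Car11 (0.0902), Kdr to Lamb1 (0.164) and Prx (0.179), and Flt1 to Cr1l (0.130) and Sox13 (0.136). Tek was nearest to Tgfbr3 (0.132) and Arhgap29 (0.190), and Angpt1 to Stard8 (0.175) and Cdh19 (0.183). The steeper profiles had more distant neighbours, which were Thbs1 (0.488) and Pf4 (0.556) for Angpt2, Pgf (0.483) and Hspa1a (0.526) for Esm1, Hbb-bs (0.378) and Ptges (0.396) for Adm, and Acvrl1 (0.300) and Jag1 (0.376) for Apln. No member was among the nearest pair of another member.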

How the data were processed

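Poly(A) RNA of 12 hemispheres, ischemic in 8 mice and from sham surgery in 4, was sequenced as paired reads, and the authors deposited raw counts per gene, without normalization, with gene lengths and positions. The submitters' processing notes name featureCounts and DESeq2, and the builds GRCm39 and mm10 without a role. Start and end of 39754 of 39756 genes match RefSeq on GRCm38.p6. The aligner and the strand setting were not given in the sources used here. The replicate label alone does not say whether libraries were prepared separately, so p-values measure the spread between these libraries, in which mouse and preparation cannot be told apart. Libraries of a group differed by more than sampling noise (chi-square per degree of freedom at least 2.56).

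Counts were analysed with R 4.3.3 and edgeR 4.0.16: filterByExpr (0.531 CPM in at least 4 mice), TMM, a quasi-likelihood fit of all 12 mice, and Benjamini-Hochberg adjustment over 17558 genes. A standard error is the absolute log2 fold change over the root of F. Floors cover counting error only. Exact permutation tests were two-sided. Plots used matplotlib 3.10.9. Scripts were tested on simulated data. Alternatives were DESeq2 1.42.0, RLE factors, library size only, no filter, the replicate number as a block, a fit of only the 2 groups at hand, the study's thresholds, each mouse left out and, added after seeing the data, Vehicle mice 1 and 2 left out and Slc2a1 left out of the endothelial sum.

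The text names all members, at most 3 genes of each pathway list with the smallest p in Vehicle against Sham among those called in any comparison, and the 2 nearest profiles of each tested member. A gene that this rule takes from the pathway lists is not reported here. Members and lists were chosen with earlier results of these data known.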

Additional observations from a re-analysis of the deposited data

Results flagged for a closer look

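In 30 groups of 4 mice (10 genes in 3 groups), a mouse standing far from the others was looked for by the gap to its nearest neighbour divided by the group's range. Chance alone marks about 1 in 20 groups, and 3 were marked. Tek in Vehicle mouse 2 was the highest of its group with a gap of 0.925 of the range. Adm in LJP mouse 3 was the highest of the LJP mice with a gap of 0.865, at 2.72 CPM. Apln in LJP mouse 1 was the highest of the LJP mice with a gap of 0.83, at 31.5 CPM, which is still below every Sham mouse.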

How the results depend on the processing

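Angpt2, Adm and Vegfa kept their direction and their call in Vehicle against Sham in all 19 alternatives, and Esm1 in 18. Of the 7 members called there, 4 were called in the fit of only the 2 groups, which lost Tek, Kdr and Apln, and 4 without Vehicle mice 1 and 2, and leaving out 1 mouse gave 4 to 8. In LJP against Vehicle the count of 0 members went to 8 with DESeq2, 7 at the study's thresholds and 6 when low counts were not filtered, and leaving out 1 mouse gave 0 to 7. In LJP against Sham it went to 3 in the fit of only the 2 groups and to 3 without Vehicle mice 1 and 2, and leaving out 1 mouse gave 0 to 1. Over all genes, leaving out 1 mouse gave 5285 to 8200 calls in Vehicle against Sham, 3 to 3857 in LJP against Vehicle and 393 to 2357 in LJP against Sham. The study's thresholds took 3807 genes in Vehicle against Sham and 1223 in LJP against Vehicle. In LJP against Vehicle, DESeq2 called 2313 genes, no filter 593, the fit of only the 2 groups 2 and the fit without Vehicle mice 1 and 2 called 8. In LJP against Sham, DESeq2 called 1458 genes, the fit of only the 2 groups 4043 and the fit without Vehicle mice 1 and 2 called 4389. Directions turned for Esm1 in LJP against Sham without Sham mouse 4 (0.35) and without LJP mouse 1 (0.059), in a range of -0.28 to 0.35 over single mice left out, for Angpt1 in LJP against Vehicle without Vehicle mouse 1 (-0.040), in a range of -0.040 to 0.36, and for Apln in Vehicle against Sham without Vehicle mice 1 and 2 (-0.072), none of which passed the threshold. The cause of these moves was not tested.

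With the replicate block, edgeR called 5 members in Vehicle against Sham, since Kdr (0.76, adjusted p = 0.111) and Apln (0.93, adjusted p = 0.114) were lost, and over all genes it called 2 in LJP against Vehicle and 464 in LJP against Sham. The numbers did not pair the mice: deviations of same-numbered mice correlated between -0.322 and 0.114, with 1 of 12 pairs over 0.1, and 2 of 12 mice correlated best with their own number. Depth limits Aplnr, with 3 to 8 counts in 10 of the mice, and Esm1, with 4 to 15 counts in all Sham and LJP mice.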
